A study of Mus musculus with 4 samples.

Results

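The genes described here are 10 established targets of the transcription factor p53, followed over 4 single-colour Agilent arrays of mouse cardiac mesenchymal progenitors (CMPs). They were the probes whose gene name in the scanner files was Mdm2, Ccng1, Sesn1, Sesn2, Bax, Bbc3, Pmaip1, Trp53inp1, Phlda3 or Zmat3. This gave 11 probes of 10 genes, out of 55681 probes and 22221 named genes on the array, since Trp53inp1 had 2 probes and every other member 1. CMPs are Sca-1-positive cells that the study isolated from the atria of adult wild-type C57BL/6 mice. The study transduced them with Sendai viruses for the reprogramming factors Oct4, Sox2, c-Myc and Klf4 (OSKM) in a reprogramming medium without leukemia inhibitory factor, and asked how their expression moved while they formed fat droplets. The 4 arrays held RNA from untreated CMPs, labelled day 0 (CMP control), and from OSKM-CMPs on day 4, day 6 and day 8. All 4 groups share the strain and the growth medium with serum and bFGF in which CMPs were expanded, and the sources used here do not give how many animals stand behind a culture.

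There was 1 array for each condition, read in 1 scan. No difference between conditions had a replicate check, and none carries a p-value. The CMP control was untreated and had a single time point, so the effects of the factors, the virus, the medium and the days in culture cannot be told apart. The share of probes well above background ran from 56.6% to 59.6% per array. A value with ± is given with 1 SD of the scanner software's error model, which covers the measurement of a spot and neither cultures nor RNA preparation. Signals are given relative to the 75th percentile of their array (relative signal), and differences are on the log2 scale, where 1 is 2-fold.

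p53 is a transcription factor that is held at a low level in unstressed cells by the ubiquitin ligase MDM2 and is released by DNA damage, oncogene activity and other stresses. Once active, it switches on genes that halt the cell cycle, lower growth signalling, repair DNA or start apoptosis, and also Mdm2 itself, which closes a feedback loop. In reprogramming with OSKM, p53 is known as a barrier, and its loss raises the yield of pluripotent cells.

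p53 binds as a tetramer to a pair of half-sites, each with a core of C and G flanked by purines on one side and pyrimidines on the other. The RefSeq promoter table of assembly GRCm38.p6 held 10 windows for 7 of the 10 genes, each running from 250 bases before a transcription start to 50 after it. A pair of half-sites was sought with a spacer of at most 1 base and at most 3 mismatches over both. The core C and G of each half-site had to be present, so mismatches were allowed only at the other positions. The half-site reads the same on either strand, so both strands were covered at once. Windows of 4 genes held such a pair, and they are printed with 50 bases on either side where the window allows, with the pair in capitals. They are shown because they are the member promoters whose letters come closest to the p53 site.

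Ccng1, chr11:40755412-40755531, minus strand, 1 mismatch: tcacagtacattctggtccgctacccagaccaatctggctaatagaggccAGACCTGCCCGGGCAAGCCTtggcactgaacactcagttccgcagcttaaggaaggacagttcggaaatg
Bax, chr7:45467029-45467148, minus strand, 2 mismatches and a spacer of 1 base: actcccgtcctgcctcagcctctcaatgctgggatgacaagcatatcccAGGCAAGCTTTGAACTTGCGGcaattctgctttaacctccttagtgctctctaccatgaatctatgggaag
Bbc3, chr7:16309436-16309555, plus strand, 3 mismatches: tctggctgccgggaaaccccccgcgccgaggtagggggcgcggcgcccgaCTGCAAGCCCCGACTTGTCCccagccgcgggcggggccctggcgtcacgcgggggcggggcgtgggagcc
Sesn1, chr10:41887216-41887335, plus strand, 3 mismatches: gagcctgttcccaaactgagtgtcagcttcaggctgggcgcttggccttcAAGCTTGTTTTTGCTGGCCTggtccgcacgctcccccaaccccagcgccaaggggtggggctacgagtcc

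The pair in Ccng1 began 195 bases before the start, that in Bax 201, that in Bbc3 97 and that in the second of 2 Sesn1 windows 173. Of all 32851 windows in the table, 0.11% held a pair with at most 1 mismatch, 0.682% with at most 2 and 2.82% with at most 3. The windows of Mdm2, Sesn2 and Phlda3, the other Sesn1 window and both other Bbc3 windows held none at this limit. A match is a match of letters and not a measured binding site, and p53 sites outside these windows were not searched.

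The members did not move as one group. Sesn1, Bbc3 and Trp53inp1 stood at least 2-fold higher in OSKM-CMPs on day 8 than in the CMP control, Sesn2 between 1.5-fold and 2-fold higher, and Mdm2, Ccng1 and Zmat3 less than 1.5-fold higher. Bax, Pmaip1 and Phlda3 were lower by less than 1.5-fold on day 8. The median log2 difference of the 10 genes from the control was 0.19 on day 4, 0.41 on day 6 and 0.47 on day 8, beside medians of -0.01, -0.04 and -0.03 over all 16658 genes measured.

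At least 2-fold higher were 2 of the 10 members on day 4, 3 on day 6 and 3 on day 8, and none was 2-fold lower on any day. Over all genes measured, 12.1% were at least 2-fold higher on day 4, 13.0% on day 6 and 14.4% on day 8, and 9.57%, 11.5% and 11.7% were at least 2-fold lower. At least 1.5-fold higher were 3, 4 and 4 members, against 19.7%, 20.5% and 22.5% of all genes. The only member at least 1.5-fold lower on any day was Phlda3 on day 4, when 18.2% of all genes were. With the array median as scale, 2, 1 and 1 members were at least 1.5-fold lower on days 4, 6 and 8. On days 6 and 8, 20.7% and 21.3% of all genes were at least 1.5-fold lower. With 10 genes, these counts rest on single genes. The 3 comparisons share the control array, so an error in its control signal enters all 3 of a gene's values.

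**Figure D1:**
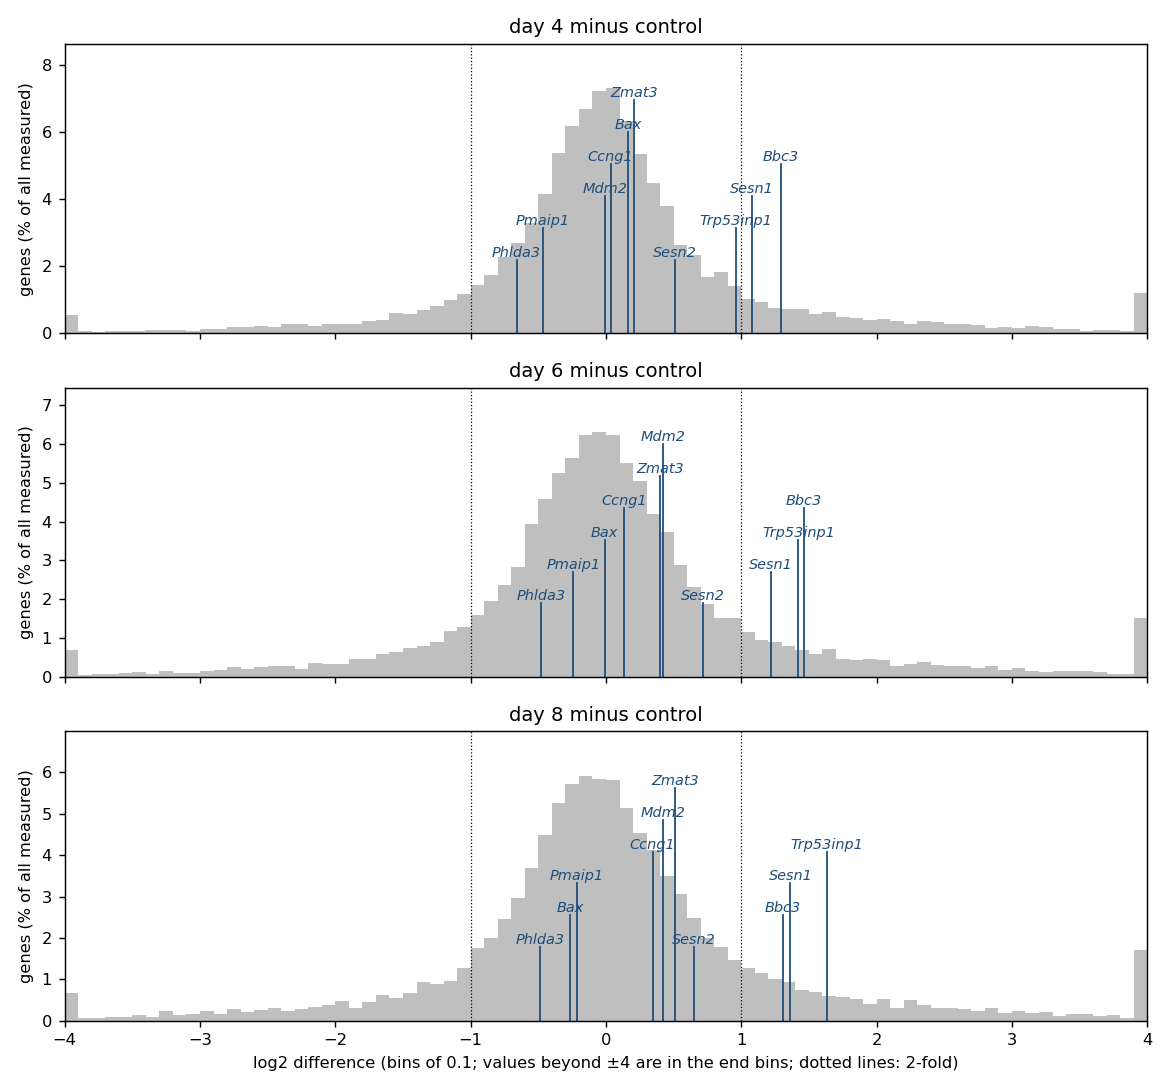
Log2 difference from the CMP control (horizontal axis) of all 16658 genes, as a histogram in percent (vertical axis), with 1 panel for each day of OSKM-CMPs and a blue line for each p53 target gene. The height of a blue line has no meaning. Bbc3 and Sesn1 lie beyond the 2-fold line on all 3 days and Trp53inp1 from day 6 on, and the other 7 genes lie between the dotted lines.

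**Figure D2:**
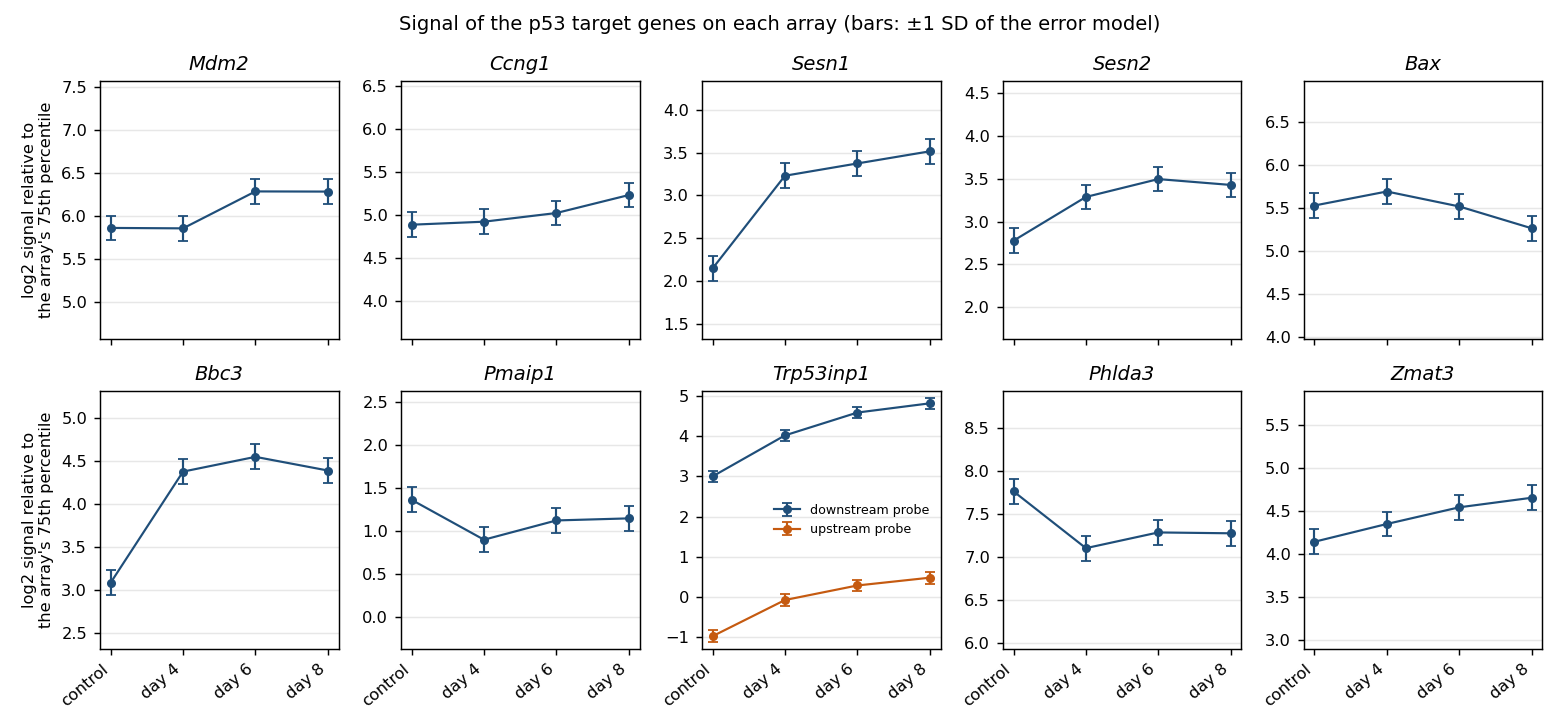
Signal of each p53 target gene on the 4 arrays, as log2 relative to the array's 75th percentile (vertical axis) against the condition (horizontal axis), with bars of ±1 SD of the error model. Panels span the same range apart from that of Trp53inp1, which holds both of its probes. Sesn1 and Bbc3 stepped up between the control and day 4, Trp53inp1 went on upwards to day 8, and Phlda3 stood highest in the control.

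All 11 probes were well above background on all 4 arrays, and none was saturated. The feedback gene Mdm2, which encodes the ligase that marks p53 for breakdown, was read by a probe at chr10:117126010-117126069 (minus strand; probe positions are on mm9). Its relative signal was 58.2 ± 5.8 in the CMP control, 58.1 ± 5.8 on day 4, 78.2 ± 7.8 on day 6 and 78.1 ± 7.8 on day 8. The control and day 4 were level, and day 6 and day 8 were level at a higher signal. The difference from the control was -0.00 ± 0.20 on day 4, with a sign that turned positive under quantile normalization, and 0.42 ± 0.20 at both day 6 and day 8, about 2 times its error.

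Ccng1 encodes cyclin G1, which brings a phosphatase to MDM2. Its probe at chr11:40562427-40562486 (minus strand) read a relative signal of 29.6 ± 3.0 in the control, 30.3 ± 3.0 on day 4, 32.5 ± 3.2 on day 6 and 37.6 ± 3.8 on day 8. The order followed the days, with each step between neighbouring arrays close to or within its error. The log2 differences from the control were 0.03 ± 0.20, 0.14 ± 0.20 and 0.35 ± 0.20 on days 4, 6 and 8, and the first turned negative when arrays were scaled to their medians. Of the promoter pairs printed above, that of Ccng1 had the fewest mismatches.

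The sestrins are stress-induced proteins that restrain mTORC1, the kinase complex that drives growth, and support antioxidant defence. Sesn1, read at chr10:41628012-41628071 (plus strand), had a relative signal of 4.44 ± 0.44 in the control, 9.38 ± 0.94 on day 4, 10.4 ± 1.0 on day 6 and 11.4 ± 1.1 on day 8. All 3 OSKM-CMP arrays stood above the control by more than 5 times the error, and steps between neighbouring days were within it. Day 8 exceeded day 4 by 0.28 ± 0.20. The differences from the control were 1.08 ± 0.20, 1.22 ± 0.20 and 1.36 ± 0.20, a fold of 2.57 on day 8. This placed Sesn1 at the 89.6th percentile of all genes on day 8.

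Sesn2, read at chr4:132048858-132048917 (minus strand), had a relative signal of 6.85 ± 0.69 in the control, 9.76 ± 0.98 on day 4, 11.3 ± 1.1 on day 6 and 10.74 ± 1.08 on day 8. Again the control was the lowest array, and the 3 later arrays differed from one another by at most 0.21 ± 0.20. The log2 differences were 0.51 ± 0.20, 0.72 ± 0.20 and 0.65 ± 0.20, the last a fold of 1.57.

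Sesn3, the sestrin that is mainly known as a target of FOXO factors and not of p53, was higher by 1.14 ± 0.20 on day 4, 1.16 ± 0.20 on day 6 and 1.34 ± 0.20 on day 8. So the 3 sestrin genes were all higher on each of the 3 days. Sestrins act through GATOR2, which they bind and inhibit, and GATOR2 in turn holds back GATOR1, an inhibitor of mTORC1 signalling. None of the 8 GATOR genes measured was 2-fold different on any day at the scaling used here. Of all genes, 12.1%, 13.0% and 14.4% were at least 2-fold higher on days 4, 6 and 8. At least 2-fold lower were 9.57%, 11.5% and 11.7%. With 8 genes, such a count rests on single genes. The GATOR1 subunit genes Nprl2, Nprl3 and Depdc5 lay between -0.22 and 0.16 on day 8. Of the 5 GATOR2 genes Sec13, which also serves in vesicle coats and nuclear pores, was the lowest at -0.96. With the array median as scale, which shifted all genes by -0.27 on day 8, Sec13 passed 2-fold lower.

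Of the p53 targets in the BCL-2 family, which sets off or blocks the mitochondrial path of apoptosis, one was higher and the others were near the control or lower. Bbc3 encodes PUMA, a BH3-only protein that binds and blocks the anti-apoptotic members. Its probe at chr7:16903403-16903462 (plus strand) read a relative signal of 8.47 ± 0.85 in the control, 20.7 ± 2.1 on day 4, 23.4 ± 2.3 on day 6 and 20.9 ± 2.1 on day 8. The step lay between the control and day 4, and the 3 later arrays were within the error of one another. The differences were 1.29 ± 0.20, 1.46 ± 0.20 and 1.31 ± 0.20, or 2.45-fold, 2.76-fold and 2.47-fold.

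Pmaip1 encodes NOXA, a BH3-only protein that acts mainly on MCL1. Its probe (chr18:66625088-66625147, plus strand) read 2.58 ± 0.26 in the control, 1.87 ± 0.19 on day 4, 2.19 ± 0.22 on day 6 and 2.22 ± 0.22 on day 8. It was highest in the control, and the differences were -0.46 ± 0.20, -0.24 ± 0.20 and -0.22 ± 0.20, of which the first was about 2 times its error and the others were near 1 error.

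Bax encodes the effector that opens the outer mitochondrial membrane. Its probe at chr7:52717122-52717181 (minus strand) read 46.0 ± 4.6 in the control, 51.5 ± 5.2 on day 4, 45.7 ± 4.6 on day 6 and 38.3 ± 3.8 on day 8. Day 4 was the highest array and day 8 the lowest, 0.43 ± 0.20 apart on the log2 scale. Against the control the differences were 0.16 ± 0.20, -0.01 ± 0.20 and -0.26 ± 0.20. The last was 0.02 under quantile normalization, with or without normexp, so Bax has no settled direction on day 6 or day 8.

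The partners of these proteins in the BCL-2 family went both ways, and not every gene followed the others of its role. The anti-apoptotic guardians Bcl2, Bcl2l1 (BCL-XL), Bcl2l2 (BCL-W) and Mcl1 were lower than the control on all 3 days, 4 of 4 each time. Their median difference was -0.98 on day 4, -1.00 on day 6 and -0.81 on day 8. Among all genes, a difference of -0.004 lay at the 50.4th percentile on day 4. On day 6, a difference of -0.01 lay at the 51.5th, and on day 8 one of -0.04 at the 49.8th. Of the 4 guardians Bcl2l1 differed most, with -1.61 ± 0.14 on day 8, with its probes at -1.66 and -1.55. Bcl2 was at -0.82 ± 0.20 and Mcl1 at -0.74 ± 0.14 on that day, the probes of Mcl1 at -0.49 and -1.00.

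Among the BH3-only genes, Bmf, whose product senses loss of anchorage, was higher by 2.97 ± 0.20 on day 8, and Bid, which links death receptors to mitochondria, by 1.73 ± 0.20. Bik and Hrk were not well above background in the control, and on day 8 were at least 3.14-fold and at least 2.16-fold higher. Bcl2l11 (BIM) was higher by 0.56 ± 0.22 with one probe, while the other was not well above background in the control and at least 2.08-fold higher on day 8. Bad, the sixth BH3-only gene, was at -0.47 ± 0.14. The effectors other than Bax were below the control on day 8, Bok at -1.05 ± 0.20 after 0.32 ± 0.20 on day 4, and Bak1 at -0.70 ± 0.20.

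Over the 12 partners, 5 were at least 2-fold higher and 2 at least 2-fold lower on day 8, beside 14.4% and 11.7% of all genes, and the median was -0.58, beside -0.03 over all genes. These counts take the mean of a gene's probes, so Bik, Hrk and Bcl2l11 enter the 5 with a probe that the control array did not measure. The share of 14.4% is not matched for level. With all genes sorted by mean level into 10 bins, 28.2% of the dimmest bin were at least 2-fold higher on day 8. In the brightest bin, 5.76% were. The direction of each of the 12 partners on each day was the same under every scaling tried.

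**Figure D3:**
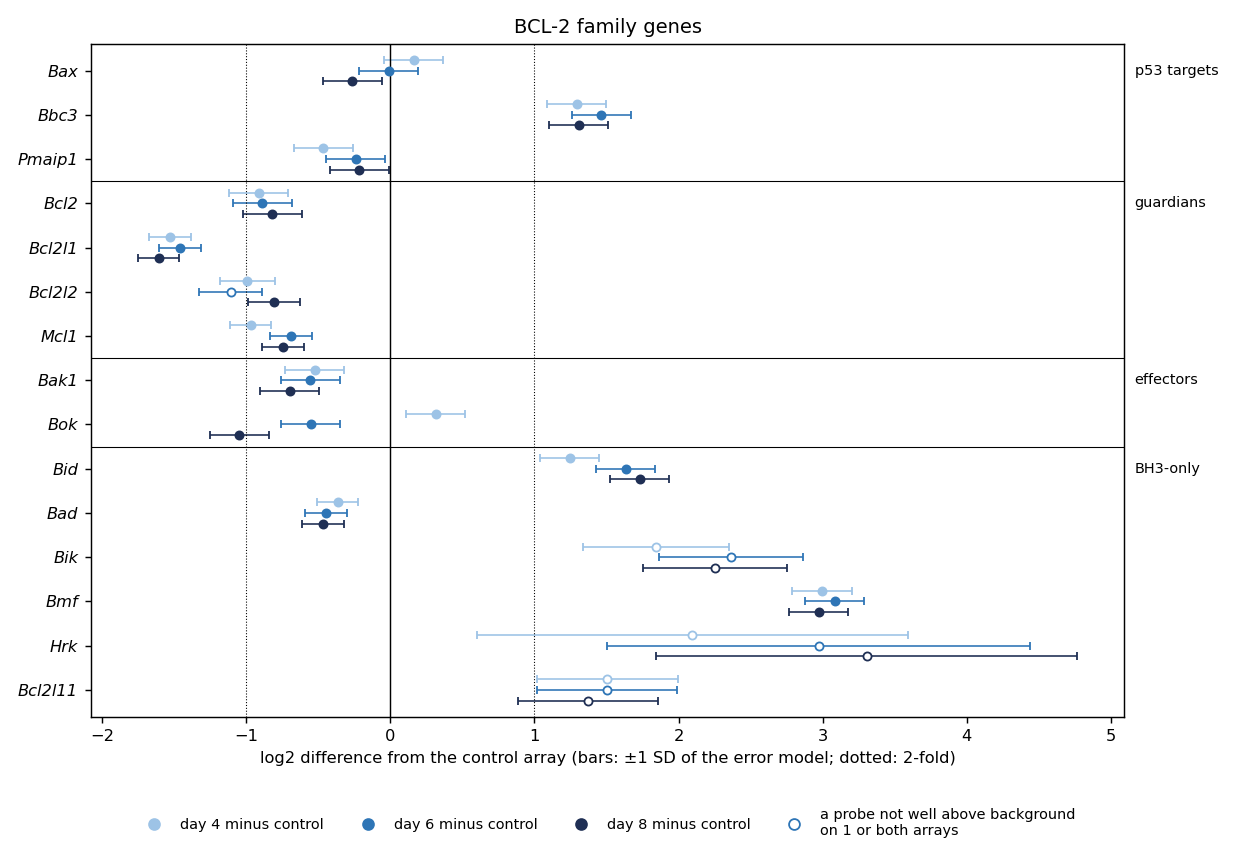
Log2 difference from the CMP control (horizontal axis) for the genes of the BCL-2 family, grouped by role, on day 4 (light), day 6 (middle) and day 8 (dark) of OSKM-CMPs, with bars of ±1 SD of the error model. Open circles mark genes with a probe not well above background on 1 or both arrays. The 4 guardians lie left of 0 on all days, Bbc3 lies beyond 2-fold on the right, and Bax and Pmaip1 lie near 0.

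Trp53inp1, which encodes a stress protein that aids p53 and is known for roles in autophagy, was the member that differed most from the control on day 8. Its downstream probe (chr4:11101174-11101233, plus strand) read 7.99 ± 0.80 in the control, 16.2 ± 1.6 on day 4, 24.0 ± 2.4 on day 6 and 28.1 ± 2.8 on day 8. Its upstream probe (chr4:11092530-11092589) read 0.510 ± 0.051, 0.950 ± 0.095, 1.22 ± 0.12 and 1.40 ± 0.14 in the same order. Both probes gave the same order of arrays, with the control lowest and day 8 highest.

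The downstream probe was higher than the control by 1.02 ± 0.20, 1.58 ± 0.20 and 1.81 ± 0.20 on days 4, 6 and 8, and the upstream probe by 0.90 ± 0.20, 1.26 ± 0.20 and 1.45 ± 0.20. The gene mean was higher by 0.96 ± 0.14, 1.42 ± 0.14 and 1.63 ± 0.14, which on day 8 lay at the 91.6th percentile of all genes. Trp53inp1 was also the member with the clearest later course, since day 8 exceeded day 4 by 0.68 ± 0.14.

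Zmat3 encodes an RNA-binding zinc finger protein that takes part in growth arrest by p53. Its probe (chr3:32233831-32233890, minus strand) read 17.6 ± 1.8 in the control, 20.3 ± 2.0 on day 4, 23.3 ± 2.3 on day 6 and 25.1 ± 2.5 on day 8. The order followed the days, with differences from the control of 0.21 ± 0.20, 0.40 ± 0.20 and 0.51 ± 0.20.

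Phlda3 encodes a small pleckstrin-homology protein that competes with the kinase AKT for membrane lipids. Its probe (chr1:137665642-137665701, plus strand) read 218 ± 22 in the control, 138 ± 14 on day 4, 157 ± 16 on day 6 and 155 ± 16 on day 8. The control was the highest array, and the 3 OSKM-CMP arrays were within the error of one another. The differences were -0.66 ± 0.20, -0.48 ± 0.20 and -0.49 ± 0.20, or 1.58-fold lower on day 4 and 1.40-fold lower on day 8. On day 8 the value was -0.17 under quantile normalization and -0.75 with the array median as scale.

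The differences also went with brightness over the whole array. When all genes were sorted by mean level over the arrays into 10 bins, the 1666 genes of the brightest bin had a median difference from the control of -0.09 on day 4, -0.18 on day 6 and -0.25 on day 8. That bin held Mdm2, Ccng1, Bax, Phlda3 and Zmat3. The next bin, with Sesn1, Sesn2 and Bbc3, had a median of -0.19 on day 8, and 6.90% of its genes were at least 2-fold higher on day 8. Trp53inp1 was in bin 8 and Pmaip1 in bin 7, counted from the dimmest. In the dimmest bin, 28.2% of the genes were at least 2-fold higher on day 8. The part of this trend in the values of single members or of their BCL-2 family partners was not tested.

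Between the days of OSKM-CMPs the members were steadier than against the control. From day 4 to day 6 their median difference was 0.19, with 9 of 10 above 0, and from day 6 to day 8 it was 0.01, with 5 of 10 above 0. Over all genes, a difference of -0.0003 lay at the 54.4th percentile from day 4 to day 6. From day 6 to day 8, a difference of -0.0015 lay at the 51.3rd. No member was 1.5-fold different in either step, in which 6.68% and 6.39% of all genes were at least 1.5-fold higher and 7.58% and 3.78% at least 1.5-fold lower (2-fold higher, 2.83% and 2.43%, and 2-fold lower, 2.65% and 1.01%). From day 4 to day 8, only Trp53inp1 of the 10 passed 1.5-fold, beside 11.0% of all genes higher and 10.0% lower, and none passed 2-fold, beside 4.91% higher and 4.11% lower. The largest step of a member between neighbouring days was that of Trp53inp1 from day 4 to day 6, at 0.46 ± 0.14, followed by that of Mdm2 at 0.43 ± 0.20.

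The gene of p53 itself was near the control. Trp53 differed by 0.23 ± 0.14 on day 4, 0.11 ± 0.14 on day 6 and -0.19 ± 0.14 on day 8, and the day 6 value turned negative when arrays were scaled to their medians. The arrays read RNA, and p53 protein is controlled mostly after translation. Among 22 genes of the p53 family and its regulators, 4 were at least 2-fold higher on day 4, 5 on day 6 and 6 on day 8, and 0, 1 and 1 were at least 2-fold lower, beside the shares of all genes given above.

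The largest difference among regulators measured on all arrays was that of Cdkn2a, whose locus encodes the MDM2 inhibitor ARF and the cell cycle inhibitor p16. It was higher by 1.86 ± 0.14, 1.96 ± 0.14 and 1.90 ± 0.14 on days 4, 6 and 8, with its probes at 1.86 and 1.95 on day 8. Which of the 2 products the probes read was not analysed here. Atm, the kinase that signals double-strand breaks, was higher by 0.87 ± 0.11, 1.30 ± 0.11 and 1.69 ± 0.11, and Prkdc, the DNA-dependent kinase, by 1.01 ± 0.06 on day 8.

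Mdm4, which encodes the partner of MDM2 in holding p53 down, was higher by 1.01 ± 0.15 on day 8 as a gene mean, but its probes stood apart at 0.55 ± 0.22 and 1.48 ± 0.21. The only regulator at least 2-fold lower was Ppp1r13l, which encodes the p53 inhibitor iASPP, at -1.10 ± 0.20. The other genes counted on day 8 rested on a probe that was not well above background in the control. Of Atr, the kinase that signals stalled replication forks, that probe was at least 3.81-fold higher on day 8 and the other higher by 0.80 ± 0.20. Of the 3 Trp63 probes kept, 1 was at least 10.5-fold higher on day 8, and another was higher by 0.23 ± 0.20. The third was not well above background in the control or on day 8.

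**Figure D4:**
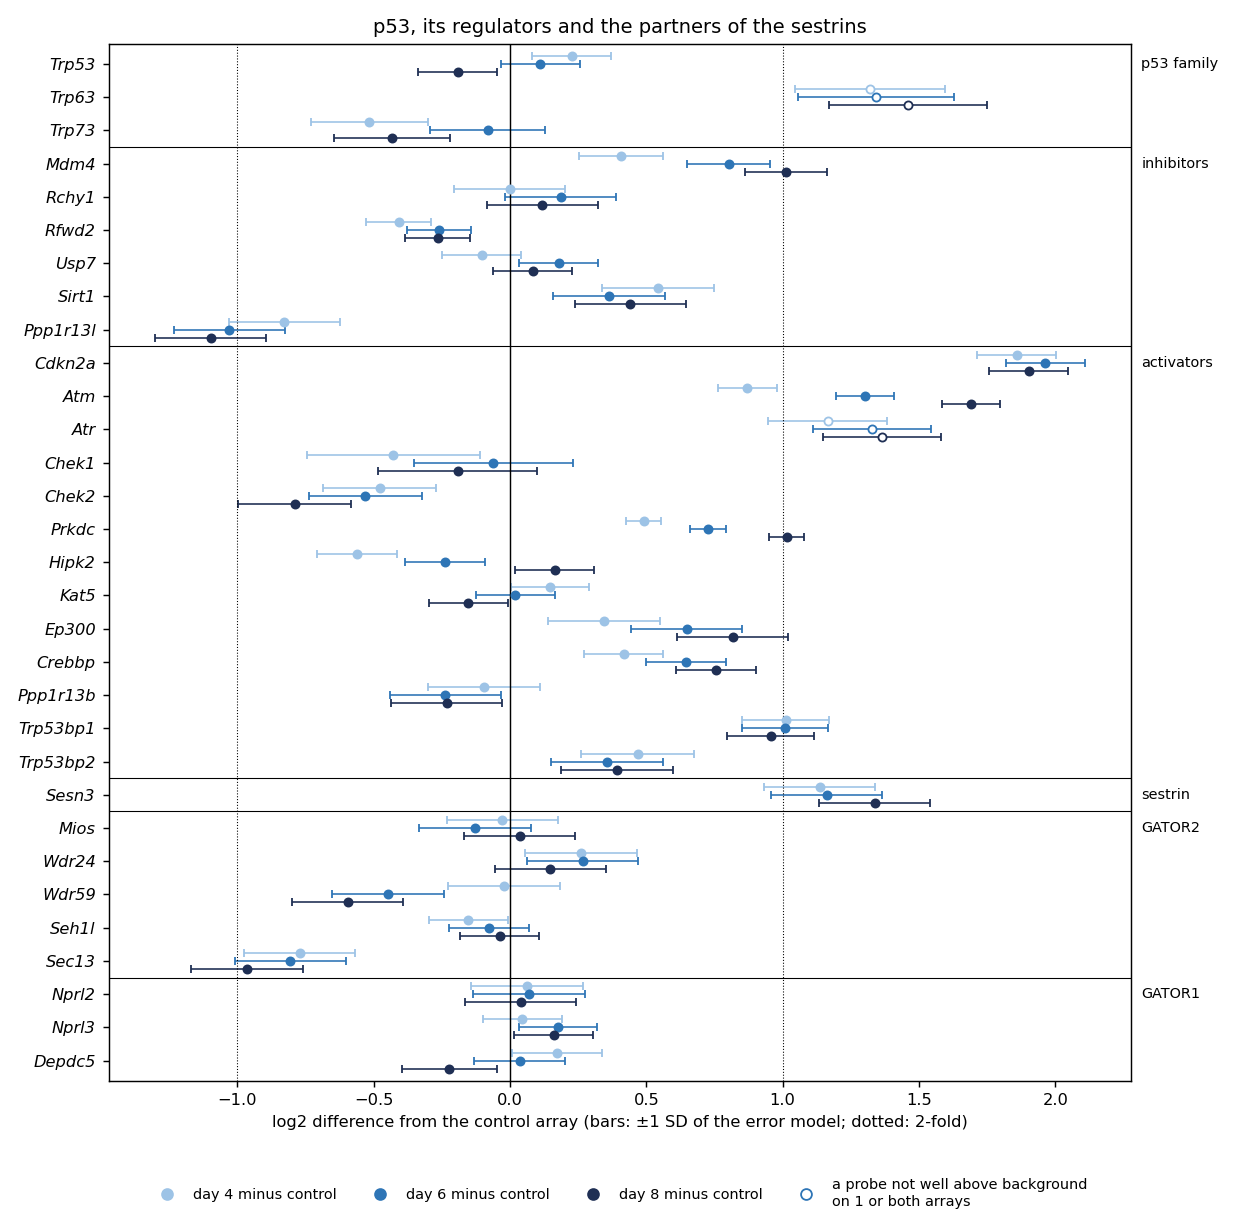
Log2 difference from the CMP control (horizontal axis) for p53 and its regulators and for the partners of the sestrins, on day 4 (light), day 6 (middle) and day 8 (dark) of OSKM-CMPs, with bars of ±1 SD of the error model and open circles for genes with a probe not well above background on 1 or both arrays. Trp53 lies near 0, Cdkn2a and Atm lie beyond 2-fold on day 8, and Sesn3 is the one gene of the sestrin group beyond 2-fold.

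The other 37 known p53 targets measured went both ways. At day 8, 6 were at least 2-fold higher and 5 at least 2-fold lower, 16.2% and 13.5% of the list beside 14.4% and 11.7% of all genes. The counts were 5 higher and 4 lower on day 4, and 7 and 4 on day 6. Their median difference was 0.05, 0.24 and 0.14 on the 3 days, and the day 8 median was -0.13 when arrays were scaled to their medians.

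The classic target Cdkn1a, which encodes the cell cycle inhibitor p21, had 3 probes that disagreed. The probe spotted most often differed from the control by -0.15 ± 0.07 on day 4, 0.21 ± 0.06 on day 6 and 0.33 ± 0.06 on day 8. Another was higher by 1.496 ± 0.22, 0.92 ± 0.22 and 1.42 ± 0.22, and the third was at -0.57 ± 0.20, -0.08 ± 0.20 and 0.06 ± 0.20. The probe with the large differences was far dimmer than the others. In the control its relative signal was 0.124, beside 35.4 for the probe spotted most often and 5.07 for the third. So the size of the Cdkn1a difference depended on the probe, and on day 8 all 3 probes were above 0.

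Perp, an apoptosis effector that also serves in desmosomes, was higher by 4.45 ± 0.20 on day 8, or 21.8-fold, and by 4.15 ± 0.20 already on day 4. Pltp, a phospholipid transfer protein of lipid metabolism, was higher by 2.30 ± 0.20 and the stress cytokine Gdf15 by 1.05 ± 0.20. Of the growth factor binding protein Igfbp3, the probe measured on all arrays was higher by 4.18 ± 0.23 on day 8, after 5.37 ± 0.23 on day 4. One probe of Ptprv, a receptor-like phosphatase of the cell cycle response, was at least 17.5-fold higher on day 8. Its other probe, dim at a relative signal of 0.037 on day 8, was at least 1.36-fold higher. The sixth gene at least 2-fold higher, Ercc5, a nuclease of nucleotide excision repair, reached it with a dim probe, at least 2.29-fold higher, while its other probe was higher by 0.93 ± 0.20.

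On the other side, the stress kinase Plk3 differed by -2.48 ± 0.20 on day 8, the receptor Epha2 by -1.77 ± 0.20, the matrix protein Thbs1 by -1.19 ± 0.20 and Gtse1, a mitotic protein that restrains p53, by -1.03 ± 0.20. The 5 genes of DNA repair and nucleotide supply in this list (Ddb2, Xpc, Polk, Rrm2b and Ercc5) were all above 0 on day 8. Their median was 0.45. Rrm2b was below 0 at the earlier days and, for day 8, under 3 of the alternatives. Polk was below 0 on day 4, with its probes at -0.13 and -0.20. Of 7 metabolic and autophagy targets, 5 were below 0 on day 8, with a median of -0.33. These role groups were picked out after their values were seen. Over all genes on day 8, a difference of -0.04 lay at the 49.8th percentile and a difference of 0.04 at the 53.9th.

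**Figure D5:**
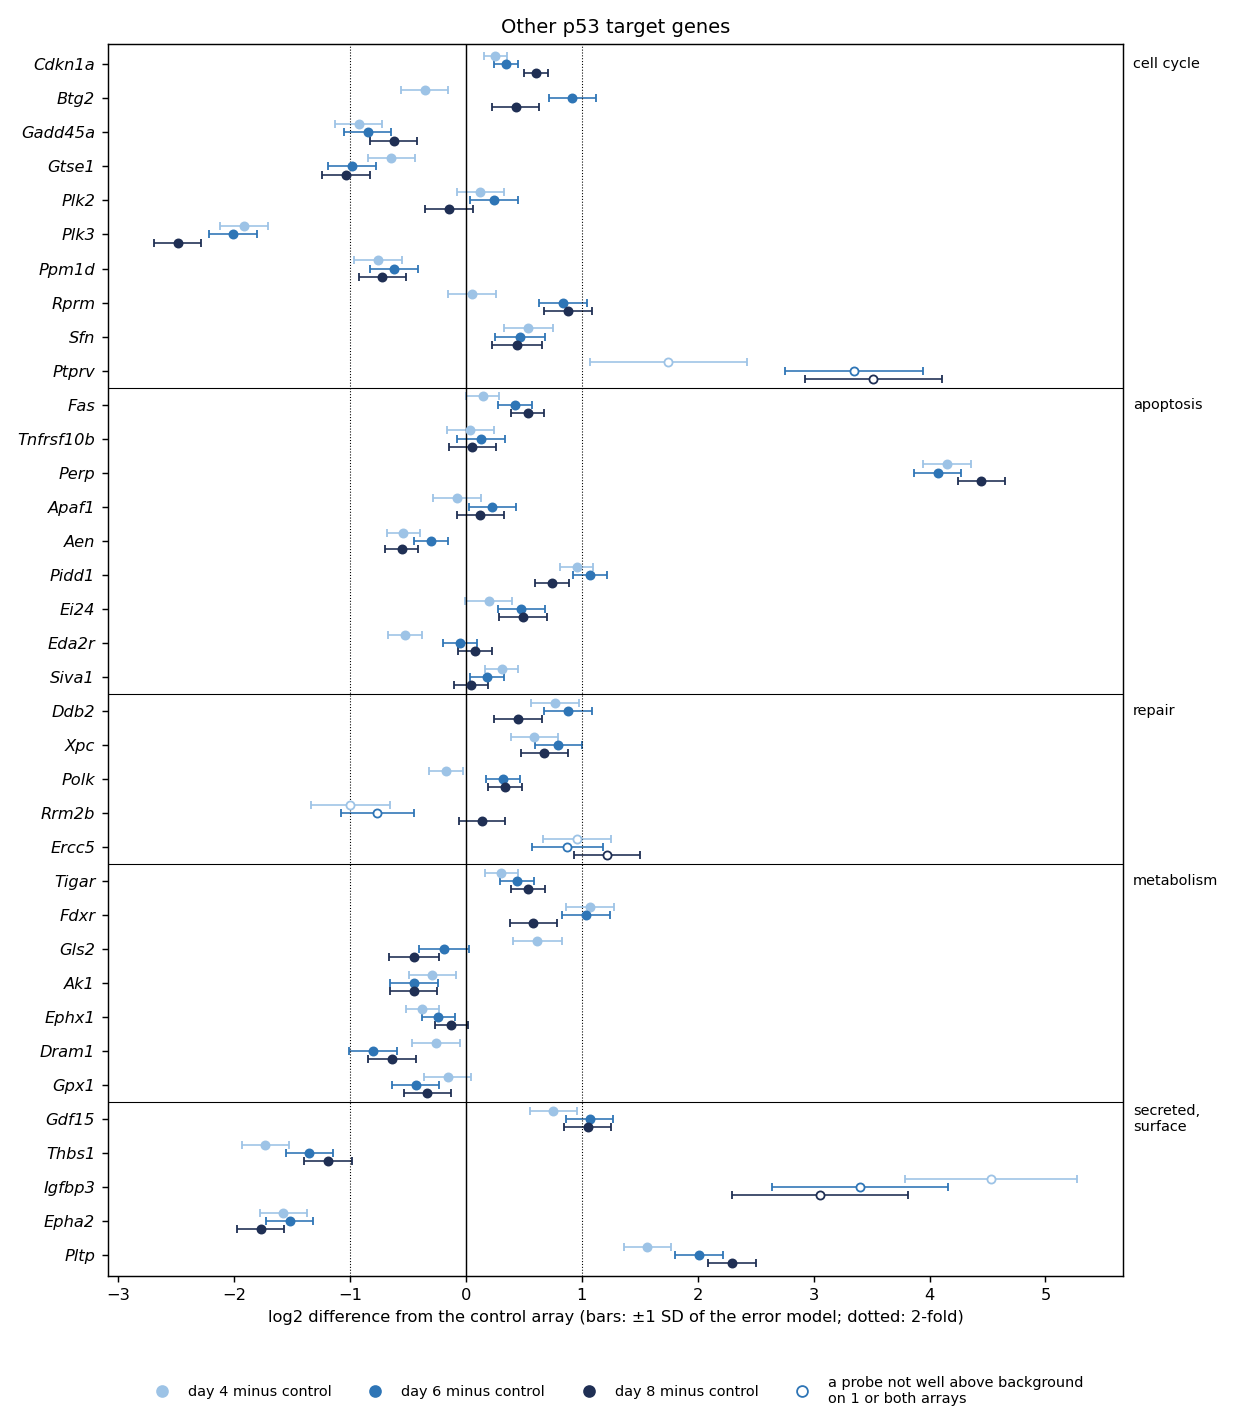
Log2 difference from the CMP control (horizontal axis) for all but 1 of the 37 other p53 targets, grouped by role, on day 4 (light), day 6 (middle) and day 8 (dark) of OSKM-CMPs, with bars of ±1 SD of the error model and open circles for genes with a probe not well above background on 1 or both arrays. Over all days, Perp and Igfbp3 reach farthest to the right and Plk3 and Epha2 farthest to the left, and most genes lie between the 2-fold lines. On day 8 alone, Ptprv lies beyond Igfbp3.

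In RNA from a whole culture, fewer cells of a type and less RNA per cell cannot be told apart. Marker signals differed between the arrays. The 9 mesenchymal progenitor markers were all above background on every array, with a summed relative signal of 443 in the control, 315 on day 4, 339 on day 6 and 394 on day 8. On day 8, 2 of them were at least 2-fold higher and 3 at least 2-fold lower. Ly6a, which encodes the Sca-1 antigen that CMPs express, was at 25.2 in the control and 163 on day 8, and Nt5e was also higher. Thy1 was at 269 and 78.4 in the same order, and Eng and Itgb1 differed by -1.19 and -1.35. The 6 adipocyte markers summed to 4.99 in the control, 46.8 on day 4, 158 on day 6 and 338 on day 8, and 3 of them, Adipoq, Plin1 and Cfd, were not above background in the control. The part of these markers in the differences of the p53 targets was not tested.

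Markers of other cell types were also followed. The 6 leukocyte markers summed to between 0.618 and 1.17 per array, with Laptm5 above background on none. The 4 endothelial markers summed to between 5.97 and 6.51, almost all of it Kdr, and Cdh5 and Tie1 were not above background in OSKM-CMPs. The 2 probes of Kdr disagreed. In the control the probe spotted once read 11.8 and the probe spotted 10 times 0.086, so the sum rests on 1 spot per array. The 5 cardiomyocyte markers summed to 11.9 in the control and to between 4.07 and 6.63 in OSKM-CMPs, nearly all Tnnt2, which differed by -1.60 on day 8. Myh6 and Myl7 were above background in OSKM-CMPs and not in the control, and Actc1 was above background on no array.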

How the data were processed

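Total RNA of the 4 conditions was labelled with Cy3 and hybridised to Agilent SurePrint G3 Mouse GE arrays, 250 ng per array by the labels. The authors extracted the spot intensity with Feature Extraction (10.7.3.1 in the file headers, 9.5.3 in the submitters' processing notes), and the deposited processed signal is already background-subtracted. The authors' normalized values are log2 signals with each array shifted by a constant. bFGF in the growth medium is 40 ng/ml in the labels, and another concentration in the methods.

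Here log2 was taken of the processed signal, the mean over a probe's spots was formed without outlier spots, and the array's 75th percentile, a signal of 389.3 to 411.1, was subtracted. Control spots were left out. Of 55681 probes, 35546 were well above background on at least 1 array and were kept. Names came from the RefSeq table of GRCm38.p6 (26762 probes by accession, 3819 by symbol, 639 by synonym, 24461 without a match), and kept probes of 1 gene were averaged (5015 of 16658 genes had more than 1). Probes not well above background on one side of a difference are given as a bound: the bright value over the higher of the dim value and the lowest signal well above background on that array. No test was made, since the arrays number 1 per condition, which limits the precision.

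The members and the gene lists were chosen with earlier results of these data known. Besides the 10 members, the genes named are those at least 2-fold different on day 8 and measured on both arrays, up to 5 per direction in each list, with Trp53, Mdm4, Cdkn1a, Sesn3, Bcl2, Bcl2l1 and Mcl1 whatever their values, and dim genes as bounds. Of the other p53 targets, 1 gene is counted in the list and is not reported here. Bcl2l2, Bak1, Bad, the GATOR genes and the repair genes were named after their values were seen, to complete their groups, and the 10 bins by level were added then too. Alternatives were quantile normalization, normexp (offset 50) with quantile normalization, the array median as scale, the authors' normalized values, no filter, a filter on all 4 arrays and the brightest probe. Python 3.11.15, numpy 2.4.6, pandas 2.3.3, matplotlib 3.10.9, R 4.3.3 and limma 3.58.1 were used, and the steps were tested on simulated data.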

Additional observations from a re-analysis of the deposited data

How the results depend on the processing

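Each member gene and each list median kept its direction under the authors' normalized values, both filters on dim probes and the brightest probe of a gene. Under quantile normalization the median difference of the members from the control was 0.33, 0.64 and 0.74 on days 4, 6 and 8, under normexp with quantile normalization 0.32, 0.59 and 0.71, and with the array median as scale 0.0416, 0.28 and 0.20. The array median shifted all genes by -0.14, -0.13 and -0.27, and moved the higher share of all genes called 2-fold on day 8 from 55.2% to 40.0%. At least 1.5-fold higher on day 8 were 7 members under either quantile setting in place of 4. With the array median they were 3, and 2, 1 and 1 were at least 1.5-fold lower on days 4, 6 and 8 in place of 1, 0 and 0. At least 2-fold higher on day 8 were 3 in every setting, while on day 4 the 2-fold count ranged from 1 to 3. Bax on day 8 reversed to 0.0151 under quantile normalization and 0.0225 with normexp before it. For the other p53 targets the median was 0.16 on day 4 and 0.25 on day 8 under quantile normalization, and -0.0889, 0.11 and -0.13 with the array median, with a changed sign on days 4 and 8. Under quantile normalization the median of the BCL-2 partners was 0.0815, -0.35 and -0.42, with a changed sign on day 4, and that of the sestrin partners on day 6 changed sign to -0.0610. The causes of these moves were not tested. Of 210 values of single members, 182 moved by less than their error. No paired analysis was possible because the arrays number 1 per condition, and for the same reason no array could be left out within a condition.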
